A study of Mus musculus with 9 samples.

Results

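Long noncoding RNAs that stay in the nucleus or are expressed from imprinted loci were followed through precipitation of Pum2, a Pumilio-family RNA-binding protein, from embryonic mouse cortex. A list of 8 such RNAs was fixed by symbol: 3 RNAs of nuclear bodies (Malat1, Neat1 and Miat) and 5 imprinted RNAs (Meg3, H19, Rian, Mirg and Kcnq1ot1). A row of the array table counted when it carried exactly that 1 symbol, and the row with the highest mean over the 9 arrays stood for its gene. By this rule 6 of the 8 RNAs were matched, through 7 rows, among 22180 genes. H19 and Mirg had no row of their own and stay out of every count, median and comparison of members. The RNAs were proposed, in effect selected on their Pum2 over IgG differences, with that comparison of long noncoding RNAs already known, and their rows were chosen by mean level. Those differences are therefore a description with no p-value for the members, and the mean levels that chose the rows are a description as well. Each comparison against input shares its Pum2 or IgG arrays with Pum2 over IgG. The members' p-values and counts against input are therefore not independent of that selection.

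All samples were cortices from CD1 mouse embryos of wild-type genotype, taken at embryonic days 12 to 13 and lysed fresh. The 3 groups were total input RNA with no antibody, RNA precipitated with normal rabbit IgG (the background of the method), and RNA precipitated with a rabbit antibody to Pumilio2, with 3 biological replicates each on Mouse Gene 2.0 ST arrays. The sources used here do not say whether a replicate pooled several embryos or litters. Values are log2 signals, and a difference of 1 is a 2-fold change. The arrays were normalized, and the median gene read 6.05 to 6.10 in every array. A fall, rise or depletion is therefore relative to the other RNAs of the same sample, and absolute amounts are not known. An array gives no read depth, so the number of arrays limits the precision. In such bulk tissue, fewer cells of a type and less RNA per cell cannot be told apart.

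Malat1 and Neat1 are made from neighbouring genes and sit in nuclear speckles and paraspeckles, bodies that hold splicing factors and retained RNA, and Miat (also called Gomafu) forms its own nuclear spots in neural cells. Meg3, Rian and Mirg lie in a row in the Dlk1-Dio3 imprinted domain, are expressed from the maternal chromosome and carry clusters of small nucleolar RNAs and microRNAs. Kcnq1ot1 is made from the paternal chromosome, antisense to Kcnq1, and silences neighbouring genes in cis. Pumilio proteins bind short motifs, mostly in the 3′ ends of cytoplasmic mRNAs.

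The annotated starts of the 4 RNAs that passed a test against input are shown to identify their genes. They do not show where the array rows lie or which transcripts carry the differences. The sequences are from RefSeq on GRCm38.p6, in which 6 of the 8 symbols had an entry, all but Neat1 and H19. Lower case marks the 50 bases before the annotated start, and capitals mark the first 50 bases after it.
Malat1 (chr19:5802623-5802722, - strand): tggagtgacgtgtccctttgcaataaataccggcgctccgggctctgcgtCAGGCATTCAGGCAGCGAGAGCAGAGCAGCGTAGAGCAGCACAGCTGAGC
Miat (chr5:112228899-112228998, - strand): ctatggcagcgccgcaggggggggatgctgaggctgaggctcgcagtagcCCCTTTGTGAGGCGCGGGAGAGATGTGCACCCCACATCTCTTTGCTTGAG
Rian (chr12:109603895-109603994, + strand): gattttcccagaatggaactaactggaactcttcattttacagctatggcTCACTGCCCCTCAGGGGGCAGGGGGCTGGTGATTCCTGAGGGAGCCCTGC
Kcnq1ot1 (chr7:143296498-143296597, - strand): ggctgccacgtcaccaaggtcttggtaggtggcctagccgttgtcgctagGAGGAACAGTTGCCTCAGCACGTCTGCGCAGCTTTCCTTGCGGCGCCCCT

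The nuclear-body RNAs Malat1 and Miat were depleted with Pum2 relative to other RNAs. Kcnq1ot1 was depleted to a smaller extent, and Rian was higher than in input. Malat1, the abundant speckle RNA that modulates splicing, had log2 signals of 11.77, 11.65 and 11.64 in input, 11.63, 11.69 and 11.38 with IgG, and 8.92, 8.46 and 8.62 with Pum2. Every Pum2 array was below every other array, while input and IgG overlapped. Malat1 fell by 3.02 ± 0.13 against input (log2 difference with its SE, 3 arrays in each group, limma adjusted p = 1.841e-07), which is 8.10-fold lower, and 0.0676% of all genes had a lower difference. Its difference in IgG over input was -0.12 ± 0.13 (limma adjusted p = 0.59). The difference in Pum2 over IgG was -2.90 ± 0.13.

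Malat1 has a second row on the array, which was dimmer and behaved differently with IgG. Its log2 signals were 7.62, 7.09 and 7.14 in input, 5.93, 6.22 and 6.16 with IgG, and 4.45, 3.74 and 3.87 with Pum2. The 3 groups did not overlap, with input highest and Pum2 lowest. This row fell by 3.27 ± 0.21 in Pum2 over input and, unlike the brighter row, by 1.18 ± 0.21 in IgG over input (limma over all 41345 rows, adjusted p = 1.424e-05 and 0.007981). The depletion with Pum2 was thus read by both rows, whereas the IgG over input value of Malat1 depended on the row. With both rows averaged it was -0.65 (limma adjusted p = 0.01326).

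Miat, which binds the splicing factor Sf1 and acts in neural differentiation, had log2 signals of 7.71, 7.51 and 7.51 in input, 7.76, 7.94 and 7.87 with IgG, and 6.42, 6.03 and 6.50 with Pum2. The Pum2 arrays were the lowest, and the IgG arrays lay just above input without overlap. Miat fell by 1.26 ± 0.12 in Pum2 over input, 2.40-fold (limma adjusted p = 2.757e-05). In IgG over input it stood at 0.28 ± 0.12, which did not pass the test (limma adjusted p = 0.163). The Pum2 over IgG difference was -1.54 ± 0.12.

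Neat1, the RNA on which paraspeckles are built, passed no test against input. Its log2 signals were 5.91, 5.89 and 6.09 in input, 5.79, 6.34 and 5.87 with IgG, and 5.82, 5.74 and 5.75 with Pum2. IgG replicate 2 was the highest array, and the Pum2 arrays lay just below the input arrays. The difference was -0.20 ± 0.13 in Pum2 over input and 0.04 ± 0.13 in IgG over input (limma adjusted p = 0.3044 and 0.8834), and -0.23 ± 0.13 in Pum2 over IgG. The sign in IgG over input rested on 1 array, since the difference was -0.13 without IgG replicate 2. Its mean over the 9 arrays, 5.91, was just below the median gene mean of 6.08, as was that of Kcnq1ot1, at 5.99.

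**Figure D1:**
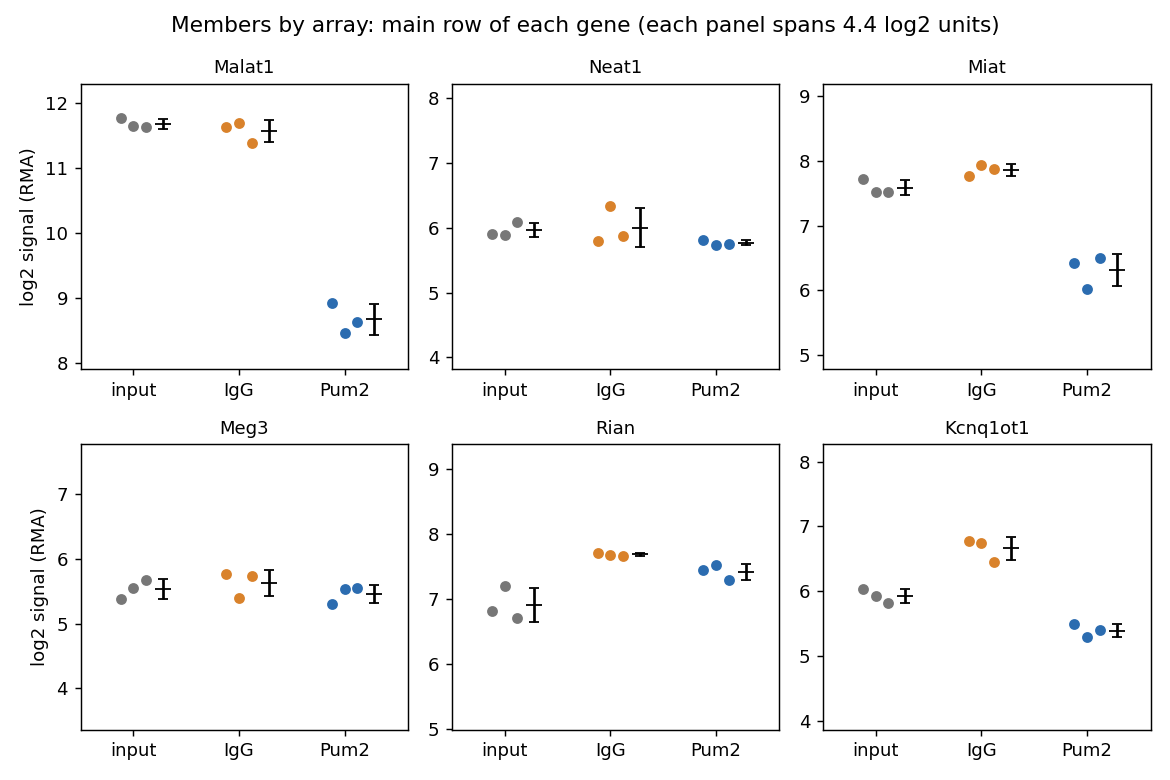
Log2 signal (y axis, RMA) of the 6 measured RNAs in input, IgG and Pum2 arrays (x axis), 3 points per group, with the mean ± SD beside them in black. Malat1 and Miat are lowest in all 3 Pum2 arrays, Kcnq1ot1 is highest with IgG and lowest with Pum2, Rian is lowest in input, and the groups of Meg3 overlap.

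Among the imprinted RNAs, Rian (also called Meg8), the host of a cluster of C/D box small nucleolar RNAs, had log2 signals of 6.82, 7.20 and 6.71 in input, 7.72, 7.68 and 7.67 with IgG, and 7.44, 7.53 and 7.29 with Pum2. Input was lowest, IgG highest, and no groups overlapped. Rian rose by 0.51 ± 0.12 in Pum2 over input and by 0.78 ± 0.12 in IgG over input (limma adjusted p = 0.008035 and 0.001862). The rise over input was thus also present in the background precipitate, and the Pum2 over IgG difference was -0.27 ± 0.12.

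Kcnq1ot1 had log2 signals of 6.04, 5.92 and 5.82 in input, 6.78, 6.75 and 6.45 with IgG, and 5.49, 5.29 and 5.41 with Pum2. IgG and Pum2 arrays lay on opposite sides of input, with no overlap. Kcnq1ot1 rose by 0.73 ± 0.11 in IgG over input (limma adjusted p = 0.001184) and fell by 0.53 ± 0.11 in Pum2 over input (limma adjusted p = 0.002697). The Pum2 over IgG difference, which spans both, was -1.27 ± 0.11.

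Meg3, a maternally expressed RNA linked to p53 and Polycomb regulation, was represented by a dim row, with log2 signals of 5.37, 5.56 and 5.67 in input, 5.76, 5.39 and 5.73 with IgG, and 5.30, 5.53 and 5.54 with Pum2. All 3 groups overlapped. The differences were -0.08 ± 0.12 in Pum2 over input and 0.09 ± 0.12 in IgG over input (limma adjusted p = 0.6731 and 0.6701), and -0.17 ± 0.12 in Pum2 over IgG. The first and last of these turned to 0.05 and 0.00 when all rows of the table were quantile normalized again.

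Set side by side, nuclear-body RNAs had lower medians than imprinted RNAs in each comparison, with a wide range inside both kinds. In Pum2 over input the median was -1.26 for the 3 nuclear-body RNAs (range -3.02 to -0.20) and -0.08 for the 3 imprinted RNAs (range -0.53 to 0.51), beside 0.07 for all genes. That imprinted median is the value of the dim Meg3 row, and rows with several symbols were left out. In this comparison, left-out rows naming H19 or Meg3 stood at -1.69, -0.71 and -0.64, and those naming Mirg or Rian at -0.24 to 0.19. The contrast of the kinds thus depends on the rows taken. Of the 6 RNAs 3 were lower and 1 higher by limma at an adjusted p under 0.05, where 13.1% of all genes were lower and 21.6% higher. The 3 Pum2 arrays lay wholly below input for 4 of the 6 and wholly above for 1, where this held for 16.8% and 28.5% of all genes. The 1 was Rian. In IgG over input the medians were 0.04 and 0.73, beside 0.02 for all genes. There 2 of the 6, both imprinted, were higher and 0 lower by limma, where 8.25% of all genes were higher and 9.72% lower, and at an unadjusted p under 0.05 3 were higher and 0 lower. The IgG arrays lay wholly above input for 3 of the 6 and wholly below for 0, against 15.9% and 16.2% of all genes. In Pum2 over IgG the medians were -1.54 and -0.27, beside 0.04 for all genes. In that comparison 3 of the 6 passed the limma threshold as lower and 0 as higher (also 0 higher at an unadjusted p under 0.05), against 11.4% and 19.4% of all genes. The Pum2 arrays lay wholly below IgG for 4 of the 6 and wholly above for 0, against 15.4% and 25.9% of all genes, and nothing is read from these counts. With so few RNAs of each kind no test of one kind against the other was made. The 3 comparisons share arrays, so their values are given beside each other and not as independent results. Selection on Pum2 over IgG therefore also touches the member counts against input.

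Averaged over the RNAs of a kind, nuclear-body RNAs read 8.35 to 8.47 in input, 8.38 to 8.66 with IgG and 6.74 to 7.05 with Pum2. Imprinted RNAs read 6.07 to 6.23, 6.61 to 6.75 and 6.08 to 6.11. The nuclear-body mean was set apart by low Pum2 arrays, and the imprinted mean by high IgG arrays. Both means hide differences between RNAs. In Pum2 over input Rian at 0.51 and Kcnq1ot1 at -0.53 offset each other, with Meg3 at -0.08. Malat1 at -3.02 and Miat at -1.26 carried the nuclear-body mean, while Neat1 stood at -0.20. In IgG over input Rian and Kcnq1ot1 rose by 0.78 and 0.73, and Meg3 stood at 0.09.

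**Figure D2:**
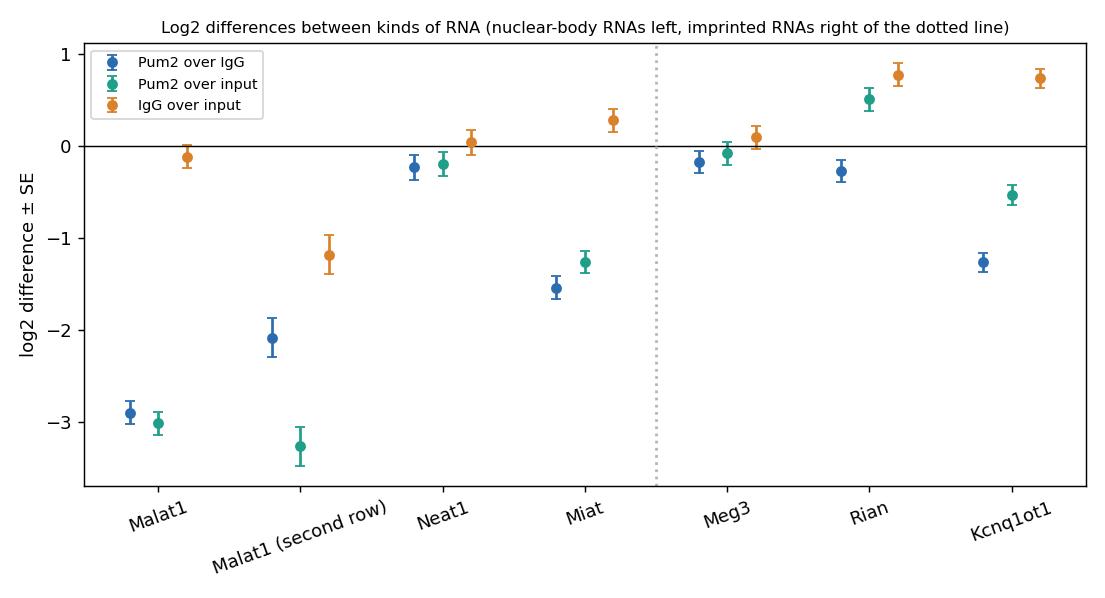
Log2 difference ± SE (y axis) of each measured RNA (x axis) in the 3 comparisons, IgG over input included, with the second row of Malat1 beside its main row. Malat1 reaches -3.02 and Miat -1.26 against input, Rian is the only RNA above 0 in Pum2 over input, at 0.51, and the 2 rows of Malat1 part in IgG over input, at -0.12 and -1.18.

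Small RNAs lie inside the transcribed span of Rian, and several were lower with Pum2. Of 6 such small RNAs with a row of their own, 3 fell and 0 rose in Pum2 over input by limma (also 0 at an unadjusted p under 0.05), with a median of -0.70, while the host RNA rose. In that comparison 13.1% of all genes were lower and 21.6% higher. The small nucleolar RNAs AF357425, AF357355 and AF357426 fell, with differences of -1.49 ± 0.18, -1.33 ± 0.43 and -1.20 ± 0.36 (limma adjusted p = 1.282e-04, 0.03514 and 0.02382). AF357355 was named after its value was seen, as were the microRNAs Mir1188 and Mir370, which stood at 0.17 ± 0.13 and 0.36 ± 0.27 (limma adjusted p = 0.3822 and 0.3508). AF357425 had mean log2 signals of 7.15 in input, 8.38 with IgG and 5.66 with Pum2. It had also risen in IgG over input, by 1.23 ± 0.18 (limma adjusted p = 0.001468). Mir341 rose in IgG over input by 0.83 ± 0.10 (limma adjusted p = 5.211e-04) and stood at -0.20 ± 0.10 in Pum2 over input (limma adjusted p = 0.1664). In Pum2 over IgG 4 of the 6 were lower, where 11.4% of all genes were lower. Mir341 was among the 4, at -1.03 ± 0.10 (limma adjusted p = 5.088e-05). Inside the span of Mirg, 6 small RNAs were measured, and 1 rose and 1 fell in Pum2 over input (median -0.09). These, named after their values were seen, were Mir154 at 0.28 ± 0.10 and Mir453 at -0.87 ± 0.27 (limma adjusted p = 0.04671 and 0.02915). Mir154 was very dim, with mean log2 signals of 2.26 in input, 2.26 with IgG and 2.54 with Pum2.

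Of 70 small RNA symbols listed for the imprinted regions, 46 had a row of their own, 40 of them with a mean below the gene median. Mir675 of the H19 locus, which shares its row with H19, is not among the 46. In Pum2 over input 2 were higher and 5 lower (median 0.01). In IgG over input 5 were higher and 0 lower by limma (9 and 2 at an unadjusted p under 0.05, median 0.13), and in Pum2 over IgG 1 was higher and 10 lower (median -0.11). Shares of all genes were 21.6% higher and 13.1% lower in Pum2 over input, and 8.25% and 9.72% in IgG over input. In Pum2 over IgG they were 19.4% and 11.4%. The counts of small RNAs are not firm. Over the alternatives those higher and lower ran from 0 to 10 and from 1 to 7 in Pum2 over input, and from 0 to 10 and from 5 to 13 in Pum2 over IgG, and those higher in IgG over input from 3 to 9. Leaving out any 1 array changed at least 1 of them by over 1.5 times; without IgG replicate 2, for example, 5 were lower in Pum2 over IgG and 3 higher in IgG over input. Mir382, which lies just before Mirg, rose by 0.27 ± 0.08 in Pum2 over input and by 0.45 ± 0.08 in IgG over input (limma adjusted p = 0.02609 and 0.004206). Its row was dim, with mean log2 signals of 3.53 in input, 3.98 with IgG and 3.80 with Pum2. The mature forms of Mir341 and Mir382, the microRNAs with the largest moderated t in IgG over input and in Pum2 over input, are shown with the seed, bases 2 to 8, in capitals (RefSeq, GRCm38.p6), and the 4 seeds differ from each other. The array rows do not tell mature forms from precursors or from the host transcript.
mmu-miR-341-5p (chr12:109611521-109611541, + strand): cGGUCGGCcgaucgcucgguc
mmu-miR-341-3p (chr12:109611556-109611576, + strand): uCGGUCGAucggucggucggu
mmu-miR-382-5p (chr12:109733781-109733802, + strand): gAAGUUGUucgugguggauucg
mmu-miR-382-3p (chr12:109733819-109733840, + strand): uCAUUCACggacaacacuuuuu

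Lower values with Pum2 were also seen in a list of long noncoding RNAs outside the 8. That list was chosen with earlier results of these data known, so it is a description and no independent support. Of 19 others with a row, 10 fell and 2 rose in Pum2 over input (median -0.36), 3 fell and 6 rose in IgG over input (median 0.09), and 12 were lower and 1 higher in Pum2 over IgG (median -0.92). Of all genes, 13.1% fell and 21.6% rose in Pum2 over input, and 9.72% fell and 8.25% rose in IgG over input. In Pum2 over IgG 11.4% of all genes were lower and 19.4% higher. Dleu2, the host of the miR-15a and miR-16 microRNAs, fell by 2.31 ± 0.09, Pantr1, made beside the neural factor gene Pou3f3, fell by 1.69 ± 0.07, and Snhg1, a small nucleolar RNA host, fell by 1.63 ± 0.08 in Pum2 over input (limma adjusted p = 1.686e-07, 1.859e-07 and 6.153e-07). Pantr1 also fell in IgG over input, by 0.76 ± 0.07, while Snhg14, the imprinted host of small nucleolar RNAs beside Ube3a, rose there by 0.76 ± 0.10 (limma adjusted p = 1.741e-04 and 7.559e-04). Dleu2 fell there as well, by 0.46 ± 0.09 (limma adjusted p = 0.006955). The RNAs that follow were named after their values were seen. The 2 that rose in Pum2 over input were both imprinted, Peg13 by 0.81 and Snhg14 by 0.55 (limma adjusted p = 1.819e-05 and 0.001678), and Peg13, like Snhg14, also rose in IgG over input, by 0.37 (limma adjusted p = 0.006581). Terc, the template RNA of telomerase, fell by 2.71, and Rn7sk, which holds the elongation factor P-TEFb inactive, fell by 0.84 (limma adjusted p = 5.796e-05 and 1.518e-04). Terc also fell by 1.79 in IgG over input (limma adjusted p = 0.002465), where Rn7sk stood at 0.20 (limma adjusted p = 0.2481).

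Genes in or beside the imprinted regions included some that were higher and some that were lower in Pum2 over input. Of all genes, 21.6% were higher and 13.1% lower in Pum2 over input, and 8.25% and 9.72% in IgG over input. In Pum2 over IgG 19.4% were higher and 11.4% lower. The counts below are given beside these shares, and nothing is read from them. Of 11 genes beside Meg3, Rian and Mirg, all protein-coding except the antisense RNA Dio3os, 4 rose and 1 fell in Pum2 over input (median 0.17), 2 rose and 0 fell in IgG over input (2 each way at an unadjusted p under 0.05, median -0.10), and 3 were higher and 1 lower in Pum2 over IgG (median 0.18). Wars, a tRNA synthetase gene, rose by 0.76 ± 0.08, the transcription factor gene Yy1 rose by 0.52 ± 0.07, and the phosphatase subunit gene Ppp2r5c fell by 0.56 ± 0.08 in Pum2 over input (limma adjusted p = 3.029e-05, 3.337e-04 and 4.349e-04). Yy1 also rose in IgG over input, by 0.31 ± 0.07 (limma adjusted p = 0.01556). Without Input replicate 1 or IgG replicate 3, 1 of the 11 rose in IgG over input. Of 21 genes beside H19 and Kcnq1ot1, 5 rose and 3 fell (median 0.10), 1 rose and 1 fell in IgG over input (median -0.05), and 4 were higher and 1 lower in Pum2 over IgG (median 0.15). The tetraspanin gene Cd81 rose by 1.05 ± 0.07, Cars, another tRNA synthetase gene, rose by 0.61 ± 0.09, and the mitochondrial ribosomal gene Mrpl23 fell by 0.84 ± 0.08 in Pum2 over input (limma adjusted p = 2.725e-06, 4.879e-04 and 2.123e-05). Mrpl23 was also the 1 gene of the 21 that fell in IgG over input, by 0.66 ± 0.08 (limma adjusted p = 4.381e-04). Without Pum2 replicate 2, 3 of the 21 rose against input. The single rise with IgG was lost without Input replicate 1 or 2 or IgG replicate 2 or 3, and the single lower gene in Pum2 over IgG without IgG replicate 1 or 2 or Pum2 replicate 3.

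The partners of the imprinted RNAs in their loci, chosen after their values were seen, also went separate ways in Pum2 over input. Dlk1, a paternally expressed Notch-related gene across from Meg3, rose by 0.49 ± 0.09, and Igf2, the growth factor gene paired with H19, fell by 0.48 ± 0.12 (limma adjusted p = 0.001964 and 0.008478). Cdkn1c, a cell-cycle inhibitor gene silenced in cis by Kcnq1ot1, rose by 0.35 ± 0.09, while Kcnq1, the channel gene that Kcnq1ot1 overlaps, stood at -0.12 ± 0.09 (limma adjusted p = 0.01095 and 0.3884). Kcnq1ot1 and Kcnq1 are antisense to each other.

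Of 26 imprinted protein-coding genes measured elsewhere, 10 rose and 2 fell in Pum2 over input (median 0.22), 8 rose and 0 fell in IgG over input (10 and 3 at an unadjusted p under 0.05, median 0.08), and 6 were higher and 4 lower in Pum2 over IgG (median 0.09). Among all genes 21.6% were higher and 13.1% lower in Pum2 over input, and 8.25% and 9.72% in IgG over input. In Pum2 over IgG these shares were 19.4% and 11.4%. The count of the 26 that were higher in IgG over input was 4 or 5 without any 1 of the Input arrays or without IgG replicate 2 or 3. Without Pum2 replicate 3, 2 of the 26 were lower in Pum2 over IgG. Igf2r, the receptor that clears Igf2, rose by 1.04 ± 0.09 and Trappc9, a vesicle tethering gene, by 0.71 ± 0.08, whereas Nnat, a small membrane protein gene of developing brain, fell by 1.08 ± 0.11 in Pum2 over input (limma adjusted p = 1.59e-05, 8.516e-05 and 3.958e-05). Trappc9 also rose in IgG over input, by 0.31 ± 0.08 (limma adjusted p = 0.02745). With IgG, Ube3a, an imprinted ubiquitin ligase gene, rose by 0.68 ± 0.08 and Igf2r by 0.69 ± 0.09 over input (limma adjusted p = 3.739e-04 and 7.984e-04).

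The mRNAs of proteins that share bodies with Malat1 and Neat1, or that bind Miat, went both ways, with list medians near those of all genes. Of 18 measured, 3 rose and 2 fell in Pum2 over input (median 0.00), 3 rose and 1 fell in IgG over input (median 0.01), and 2 were higher and 3 lower in Pum2 over IgG (median -0.01). Celf3, a splicing regulator that meets Miat in its spots, rose by 0.71 ± 0.07, Ewsr1, an RNA-binding protein gene, fell by 0.81 ± 0.11, and Nudt21, a cleavage factor gene, fell by 0.50 ± 0.07 in Pum2 over input (limma adjusted p = 2.02e-05, 1.832e-04 and 3.118e-04). In IgG over input Nudt21 also fell by 0.53 ± 0.07, and Celf3 also rose by 0.30 ± 0.07 (limma adjusted p = 7.238e-04 and 0.01067). Without Input replicate 2, 1 of the 18 rose in IgG over input, and 1 was higher in Pum2 over IgG without any 1 array other than IgG replicate 1 or Pum2 replicate 2. For comparison, 21.6% of all genes were higher and 13.1% lower in Pum2 over input, and 8.25% and 9.72% in IgG over input. In Pum2 over IgG the shares were 19.4% and 11.4%.

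**Figure D3:**
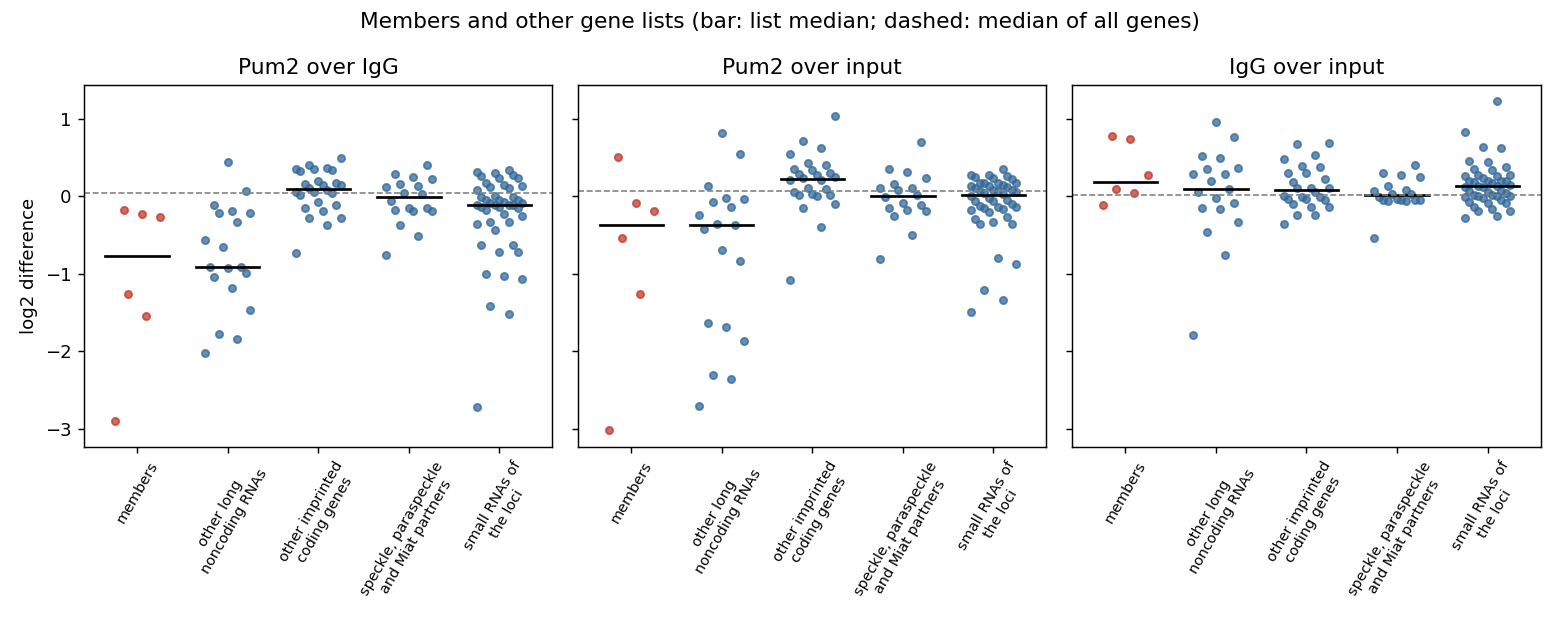
Log2 difference (y axis) of each gene in 5 sets (x axis), 1 panel per comparison, with a black bar at the set's median and a dashed line at the median of all genes. In Pum2 over input the 6 members (red) have a median of -0.36 and the 19 other long noncoding RNAs also -0.36, while the 26 imprinted coding genes have 0.22 and the 18 body and Miat partner genes 0.00.

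Genes whose log2 signals correlated most highly with a member over the 9 arrays differed between members. The correlations below describe 9 arrays in 3 groups, so a shared group pattern gives a high r, whatever the size of the differences. Malat1 was matched most closely by Rbm6, an RNA-binding protein gene, Armc1 and the mitochondrial transcript ND1 (Pearson r = 0.998, 0.998 and 0.997), and 263 of 10451 genes exceeded 0.95. In Pum2 over input these 3 stood at -1.24, -0.56 and -3.01, beside -3.02 for Malat1. A fall of the size seen in Malat1 was thus also present in ND1, a transcript that is not nuclear. Miat was nearest to Mbtd1, Marchf7 and the long noncoding RNA Chaserr (r = 0.993, 0.992 and 0.987), with 104 genes above 0.95. Kcnq1ot1 was nearest to Il18bp, the long noncoding RNA Tug1 and Cep95 (r = 0.988, 0.978 and 0.977), with 40 genes above 0.95. Rian was nearest to Xpo6, Nt5dc3 and Zfp280d (r = 0.983, 0.974 and 0.972), with 14 genes above 0.95. Neat1 and Meg3, which passed no test against input, had 1 and 0 such genes, with Slc35c2 (r = 0.957) and Rnf223 (r = 0.878) nearest. Among the members, Malat1 and Miat correlated at 0.966 and Miat and Kcnq1ot1 at 0.882, while Rian and Malat1 stood at -0.19.

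Facts of all arrays bear on these values in a few ways. Arrays of a group correlated over genes with r of 0.994 to 0.996, and arrays of different groups with 0.977 to 0.989. Of 10 markers of cortical precursors and young neurons 9 were measured, and all 9 were at or above the gene median in input. The mean of these 9 was 9.81 to 9.84 in input, 9.88 to 9.95 with IgG and 10.06 to 10.18 with Pum2, without overlap. Marker means of other cell types also differed between groups. The mean of 6 meningeal and mesenchymal markers was 7.25 to 7.27 in input, 7.33 to 7.66 with IgG and 7.95 to 7.99 with Pum2, and that of 3 erythroid markers 9.53 to 9.91, 8.96 to 9.77 and 8.43 to 9.13. The mean of 6 endothelial and pericyte markers was 8.12 to 8.19, 8.15 to 8.39 and 8.60 to 8.71. For 5 ganglionic eminence markers it was 5.85 to 5.91, 5.77 to 5.97 and 6.19 to 6.41, and for 6 microglial markers 6.25 to 6.39, 6.09 to 6.32 and 6.44 to 6.47. Their part in the differences of the noncoding RNAs was not tested.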

How the data were processed

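The members and gene lists were chosen with earlier results of these data known. Per the submitters' processing notes, the authors made the log2 values with RMA (background correction, normalization and probe summary) in Affymetrix Expression Console; neither versions nor a genome build are stated in the sources used here. The deposited table holds 41345 rows, of which 23521 carry 1 gene symbol, 1814 several and 16010 none here (platform table). Each gene was read from its row with the highest mean over the 9 arrays, giving 22180 genes, with no further normalization or filter. Limma 3.58.1 (R 4.3.3) was fitted to all 9 arrays as 3 groups with 6 residual degrees of freedom and no replicate block, and p-values were adjusted by Benjamini and Hochberg over all genes (threshold 0.05). The pipeline was tested on simulated data. An exact permutation test of 3 against 3 arrays cannot give p below 0.1. P-values measure the spread between arrays labelled as biological replicates.

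Named genes were the members; up to 3 genes of each list with the largest moderated t in Pum2 over input and 2 in IgG over input; and for each member the 3 genes with the highest r over the 9 arrays, provisional names and genes below the median level left out. Exceptions are marked. Small RNAs were placed inside spans by RefSeq annotation of GRCm38.p6. Close paralogs and overlapping transcripts can share probes.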

Additional observations from a re-analysis of the deposited data

How the results depend on the processing

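The 18 alternatives were 9 that leave out 1 array each and 9 others, of which quantile normalization over all rows of the table was chosen after seeing the data. Every limma call against input of Malat1, Miat, Rian and Kcnq1ot1 that passed the test kept its direction and its call under each alternative that tested the gene. The filter on genes below the median level removed Neat1, Meg3 and Kcnq1ot1. With it, members higher in IgG over input numbered 1, and medians rested on fewer RNAs: nuclear-body RNAs -2.22 in Pum2 over IgG and -2.14 in Pum2 over input, imprinted RNAs 0.51 in Pum2 over input. Quantile normalization over all rows moved the median of all genes to 0.19 in both Pum2 comparisons, and gave medians of -1.08 and 0.05 for nuclear-body and imprinted RNAs in Pum2 over input. Signs that turned belonged to differences that passed no test: Meg3 in Pum2 over IgG (0.0033) and Pum2 over input (0.048) and Malat1 in IgG over input (8.4e-04) under that normalization, and Neat1 in IgG over input without IgG replicate 2 (-0.13). Averaging the rows of Malat1 made it the 1 member lower in IgG over input (-0.65). Rian in Pum2 over IgG passed the threshold in a fit of those groups alone (-0.27), with arrays centred on brighter genes (-0.36) and without Input replicate 2 (-0.27). Since the members were in effect selected on that comparison, nothing is read from this.

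With 1 array left out, members lower numbered 3 to 4 in Pum2 over IgG and 3 to 3 in Pum2 over input. The median of nuclear-body RNAs ranged from -0.13 to 0.14 in IgG over input, from -1.63 to -1.40 in Pum2 over IgG and from -1.35 to -1.12 in Pum2 over input. The median of imprinted RNAs ranged from 0.68 to 0.78, from -0.32 to -0.22 and from -0.16 to -0.00064.

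Counts of the other lists that moved by over 1.5 times had these ranges over the alternatives. The reported count is in brackets, and those of small RNAs stand beside them in the report. Imprinted coding genes were 3 to 12 (6) higher and 2 to 4 (4) lower in Pum2 over IgG, 1 to 2 (2) lower in Pum2 over input, and 4 to 8 (8) higher and 0 to 2 (0) lower in IgG over input. Genes beside H19 and Kcnq1ot1 were 3 to 11 (4) higher and 0 to 2 (1) lower in Pum2 over IgG, 3 to 8 (5) higher in Pum2 over input and 0 to 2 (1) higher in IgG over input. Genes beside Meg3 were 3 to 6 (3) and 4 to 7 (4) higher in the Pum2 comparisons, and 1 to 2 (2) higher and 0 to 1 (0) lower in IgG over input. Body and Miat partner genes were 1 to 4 (2) higher and 3 to 5 (3) lower in Pum2 over IgG, and 1 to 5 (3) higher in IgG over input, and other long noncoding RNAs 1 to 2 (1) higher in Pum2 over IgG. The causes were not tested.

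Same-numbered arrays deviated from their group means with r of 0.002 to 0.135 over genes, and 3 of 9 pairs exceeded 0.1. For arrays of different numbers r was -0.13 to 0.041, and 0 of 18 exceeded 0.1. The main fit did not take the numbers as pairs, and a replicate block was fitted as an alternative. An array correlated best with its own number in 16 of 18 cases. With the replicate block Malat1 stood at -3.02 and Rian at 0.51 in Pum2 over input, no call of a member changed, and genes called in that comparison were 4855 higher and 2910 lower, against 4793 and 2895 without it.

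Neat1, Meg3, Kcnq1ot1 and 40 of 46 small RNAs had means below the gene median.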

Other observations

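Rows that carry several symbols were left out of the comparisons, and 7 of them name a member together with small RNAs of the same locus. Their values are given as those of the row and are assigned to no single gene. The row of H19 and Mir675 had log2 signals of 9.97, 10.10 and 9.79 in input, 10.08, 10.26 and 10.003 with IgG, and 8.30, 8.57 and 7.91 with Pum2, so the Pum2 arrays lay wholly below the rest. Its difference in Pum2 over input was -1.69 ± 0.17 (limma over 41345 rows, adjusted p = 1.175e-04), and in IgG over input it was 0.16 ± 0.17 (limma adjusted p = 0.5997).

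Rows that name Meg3 beside microRNAs differed from the row of Meg3 alone. The row of Meg3 and Mir770 had log2 signals of 6.59, 6.46 and 6.46 in input, 7.03, 6.95 and 6.86 with IgG, and 5.86, 5.58 and 5.96 with Pum2. It stood at -0.71 ± 0.11 in Pum2 over input and 0.45 ± 0.11 in IgG over input (limma adjusted p = 0.001387 and 0.03112), with IgG above and Pum2 below input, the order also seen in Kcnq1ot1. The row of Meg3, Mir1906-1 and Mir1906-2 stood at -0.64 ± 0.11 and 0.05 ± 0.11 (limma adjusted p = 0.002043 and 0.8112). The row of Meg3 alone, at -0.08 and 0.09, passed neither test, so the reading of this locus depends on which rows are taken.

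The 3 rows that name Mirg with microRNAs stood at 0.14, -0.02 and -0.24 in Pum2 over input, and the row of Rian and the small nucleolar RNA DQ267100 at 0.19. None of these 4 rows passed the test there (limma adjusted p = 0.5538, 0.874, 0.1304 and 0.3135).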
